A study of Homo sapiens with 6 samples.

Results

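The genes described here encode the PI3K, AKT and mTOR signalling pathway. The 34 members were chosen by name, and each was taken as the row of the count table whose gene symbol equals the listed name. All 34 were found among the 19610 genes of the table, and 32 of them had enough counts to be tested. RNA sequencing measured their transcripts in SH-SY5Y, a long-established cell line from a human neuroblastoma. It is labelled as wild type in all 6 libraries. One group of 3 libraries (A, B and C) came from cells treated with the solvent DMSO, and the other 3 came from cells treated with SGC707, a selective inhibitor of the protein arginine methyltransferase PRMT3. The study asked about the effect of the inhibitor on the microRNA MIR448, on IGF1R, the receptor for insulin-like growth factors that feeds into this pathway, and on phosphorylation of tau. No source used here gives the dose or the duration. Whether replicates A, B and C were grown as separate cultures is not stated, so the p-values measure only how these libraries vary, and that variation may be technical.

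Receptors for insulin and insulin-like growth factors recruit PI3K, a pair of a catalytic and a regulatory subunit that makes the lipid signal PIP3 at the plasma membrane. PIP3 brings the kinases PDK1 and AKT to the membrane, and AKT then phosphorylates FOXO transcription factors, which leave the nucleus, the TSC complex, which loses its hold on the small GTPase RHEB, and the tau kinase GSK3. RHEB activates mTORC1, the complex of mTOR with RPTOR, which drives protein synthesis through S6 kinases and the 4E-BP proteins, while mTORC2, the complex with RICTOR, phosphorylates AKT. Most of this control acts on proteins through phosphorylation, and transcript levels do not measure it.

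Total counts were 11658728 to 15437602 per library. Mitochondrially encoded transcripts took 46.7% to 60.7% of the counts with DMSO and 24.3% to 37.7% with SGC707, and counts on nuclear genes were 6066305 to 6327895 with DMSO and 7559322 to 8999358 with SGC707. Levels in SGC707 C departed from the mean of the 6 libraries along transcript GC content (Spearman correlation across genes -0.765). The same correlation was 0.339 and 0.526 in SGC707 B and A and -0.134 to 0.226 with DMSO. The members together had 17547 to 18040 counts per DMSO library and 19783 to 26642 per SGC707 library. Values below are CPM after TMM scaling between libraries (normalised CPM), listed in the order A, B, C within a group, and a count of 0 allows up to 0.181 to 0.293 normalised CPM by counting error alone. Of 11 markers of adrenergic neuroblastoma, the type of the labelled line, 10 were detected and TH had 0 counts in every library. Their summed level was 3068 to 4048 normalised CPM with DMSO and 2199 to 2854 with SGC707. Blood cell markers summed to at most 1.48 normalised CPM, with PTPRC and CD3E at 0, and epithelial markers to at most 3.34 with KRT5 at 0. Mesenchymal markers summed to 299 to 364 with DMSO and 330.1 to 358 with SGC707, and Schwann-like markers to 13.9 to 70.4 and 46.8 to 62.7 with SOX10 at 0. The part of these differences in the results below was not tested. In bulk RNA, fewer cells of a type and less RNA per cell cannot be told apart.

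No member passed the test between SGC707 and DMSO. With edgeR's quasi-likelihood test and an adjusted p threshold of 0.05, 0 of 32 members were called, where 0.0246% of all 12196 tested genes were called (0.0082% higher and 0.0164% lower). At an unadjusted p under 0.05 there were 2 members, PIK3R2 and RPTOR, against 12.8% of all genes. Both had lower means with SGC707, as had 7.13% of all genes at that level, and 0 members were higher, against 5.62%. Log2 fold changes were positive in 15 members and negative in 17, with a median of -0.04, and the median of all tested genes was 0.02. They ran from -0.75 for the kinase gene PDPK1 to 0.68 for PIK3CB, a PI3K catalytic subunit gene. The 3 SGC707 libraries lay all on one side of the 3 DMSO libraries in 7 of 32 members, against 20.6% of all tested genes. PIK3CB, PIK3R3, FOXO3 and RHEB lay above, or 4 members against 10.8% of all genes, and PIK3R2, RPTOR and FOXO1 below, or 3 against 9.78%. With RLE size factors 5 members did not overlap, 2 above and 3 below, against 20.3% of all genes. These member counts were near or below the shares over all genes.

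Other fits called some members. DESeq2 called PIK3R2 alone, lower with SGC707 (log2 fold change -0.56, DESeq2 adjusted p = 0.0394), where it called 2.07% of all genes lower. Without SGC707 C, edgeR called AKT1 and RPS6KB2 higher, where 3.73% of all genes were called higher, and PIK3R2 and PIK3C2A lower, where 5.53% were. With limma-voom and library weights, AKT1, RHEB and RPS6KB2 were called higher, where 13.1% of all genes were, and PIK3R2, PIK3C2A, RPTOR and INPPL1 lower, where 15.2% were. With scaling by library totals alone the median of all genes moved to 0.69. That scaling turned 16 negative members positive and called 8 members higher, where 21.1% of all genes were called higher. The log2 fold changes given here are therefore relative to the TMM scaling.

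**Figure D1:**
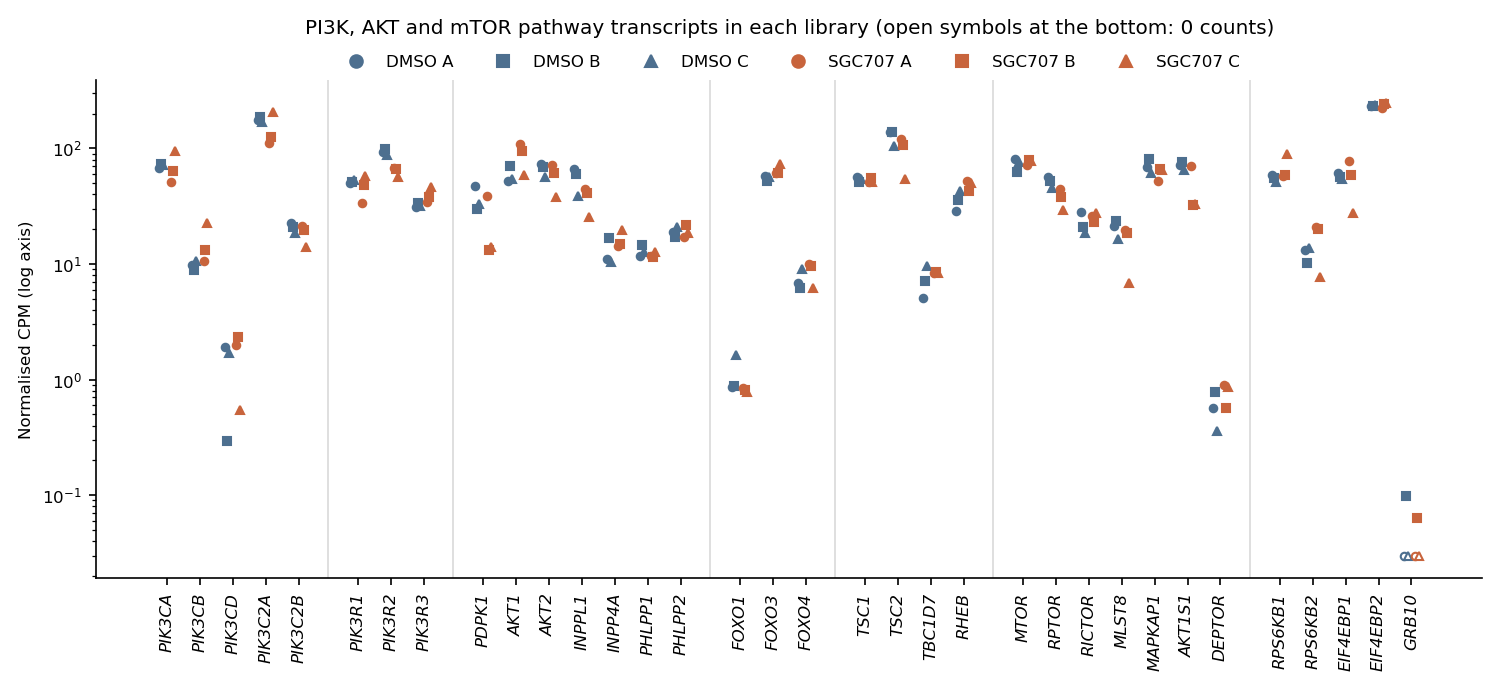
Each symbol is 1 member in 1 library, on a log axis of normalised CPM, with DMSO in blue, SGC707 in orange, the genes grouped by role, and open symbols at the bottom for 0 counts. EIF4EBP2, PIK3C2A and TSC2 had the highest values, while PIK3CD, FOXO1, DEPTOR and GRB10 lay lowest.

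**Figure D2:**
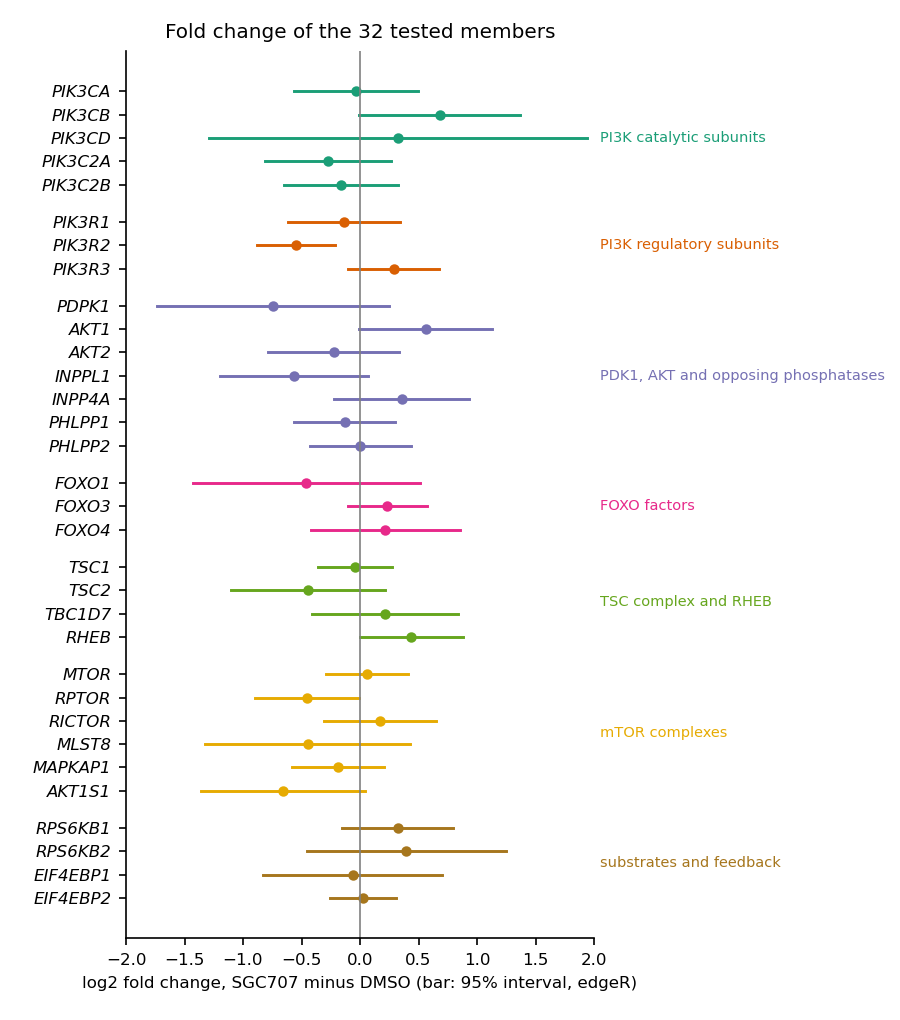
Points are log2 fold changes (SGC707 minus DMSO, 3 libraries each) of the 32 tested members and bars are 95% intervals from edgeR. The intervals of PIK3R2 and RPTOR lie below 0, and neither gene passed after adjustment.

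The PI3K catalytic subunits gave transcripts at very different levels. Per kilobase of transcript, the class II gene PIK3C2A, whose product makes other phosphoinositides on endosomes and clathrin-coated pits, was the highest of the 5, with a mean over the 6 libraries of 19.8 normalised CPM per kb. PIK3CA, the alpha catalytic subunit downstream of growth factor receptors, stood at 7.77 per kb and PIK3CB, the beta subunit, at 2.13. The delta subunit gene PIK3CD, known mainly from white blood cells, was the lowest at 0.267 per kb, with 3 to 37 counts per library. PIK3C2B, another class II gene, stood at 2.53 per kb and had a value of -0.16 on the log2 scale (edgeR adjusted p = 0.779).

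PIK3C2A (chromosome 11, 17077730 to 17207983 on GRCh38) stood at 177, 188 and 169 normalised CPM with DMSO and at 112, 125 and 206 with SGC707. SGC707 A and B lay below all DMSO libraries and SGC707 C above them. The log2 fold change was -0.27 (SE 0.23, edgeR adjusted p = 0.661), and it was -0.59 without SGC707 C (edgeR adjusted p = 0.0278 in that fit). PIK3CA (chromosome 3, 179148114 to 179240093) had 68.1, 73.8 and 72.2 normalised CPM with DMSO and 51.0, 63.6 and 95.1 with SGC707. As for PIK3C2A, SGC707 C was the highest of the 6 libraries and SGC707 A and B were the lowest, with a log2 fold change of -0.03 with an SE of 0.23 (edgeR adjusted p = 0.969).

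PIK3CB (chromosome 3, 138652699 to 138834938) stood at 9.73, 8.80 and 10.5 normalised CPM with DMSO and at 10.7, 13.3 and 22.7 with SGC707. The groups did not overlap, although SGC707 A lay close to DMSO C and SGC707 C stood far above the rest. Its log2 fold change of 0.68 (SE 0.30) was the largest of the positive ones, did not pass (edgeR adjusted p = 0.401), and was 0.31 without SGC707 C. PIK3CD had 1.91, 0.293 and 1.71 normalised CPM with DMSO and 1.99, 2.33 and 0.546 with SGC707, with the lowest values in DMSO B and SGC707 C. No difference was detectable at that depth (log2 fold change 0.32, 95% interval -1.29 to 1.94).

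The mix of the class I catalytic transcripts can be read within each library, free of scaling between libraries. PIK3CA made up 79.0%, 84.1% and 79.2% of the length-scaled counts of PIK3CA, PIK3CB and PIK3CD with DMSO. The share was 72.1%, 72.3% and 72.7% with SGC707, below every DMSO library and nearly equal among the treated ones. The means were 80.7% ± 2.88 and 72.4% ± 0.293 (SD, n = 3), a difference of -8.37 percentage points (two-sided exact permutation p = 0.1 and 0.167 adjusted over the 5 shares tested, where 0.1 is the least that 3 libraries against 3 can give). PIK3CA shares 3403 exon bases with KCNMB3 on the opposite strand. KCNMB3 had 45 to 102 counts per library, with the most in SGC707 C, and since the strand setting of the counting is not given, reads of the pair cannot be told apart.

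**Figure D3:**
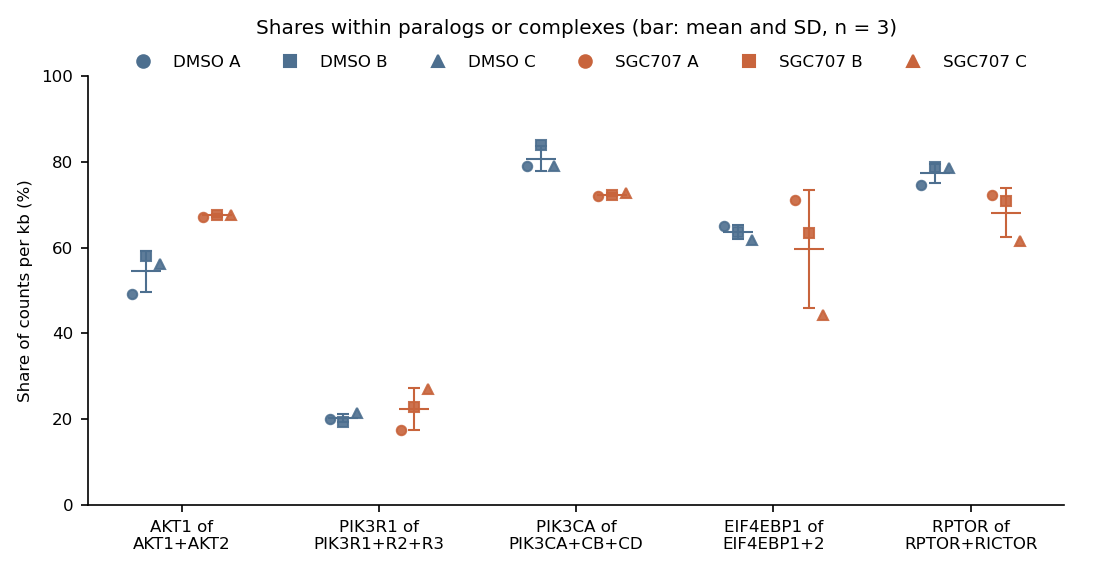
Each symbol is the share of the first named gene in the summed length-scaled counts of its paralogs or partners in 1 library, with group means and SD bars (n = 3). The AKT1, PIK3CA and RPTOR shares of the groups do not overlap, and the EIF4EBP1 and PIK3R1 shares spread widely among the SGC707 libraries.

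Regulatory subunits hold the catalytic subunits stable and inactive until they bind phosphorylated receptors or adaptors. PIK3R2, which encodes the beta regulatory subunit, was the highest of the 3 at 19.4 normalised CPM per kb, against 7.0 for PIK3R1 (alpha) and 6.40 for PIK3R3 (gamma). It also had the smallest p of all members. PIK3R2 (chromosome 19, 18153118 to 18170540) stood at 92.3, 98.6 and 88.3 normalised CPM with DMSO and at 67.7, 66.9 and 56.5 with SGC707. The groups did not overlap, and each of them was narrow beside the gap between them. The means were 93.1 ± 5.20 and 63.7 ± 6.25 (SD, n = 3). This is a log2 fold change of -0.55 (95% interval -0.88 to -0.22, unadjusted p = 0.00515, edgeR adjusted p = 0.243).

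The PIK3R2 value ranged from -0.59 to -0.47 when 1 library was left out. It was -0.27 after a correction for GC content and length (edgeR adjusted p = 0.573) and turned to 0.15 with library totals alone. The annotation places a second protein-coding locus, AC007192.1, over 3947 exon bases of PIK3R2 on the same strand. That row held 0 to 32 counts per library, against 725 to 1121 for PIK3R2, so few of the reads were assigned to it. The 250 bases before the RefSeq start of PIK3R2 are shown because it is the member with the smallest p, with a match to the ETS motif CCGGAAG (read on either strand) in capitals.
PIK3R2 (GRCh38.p14 chr19:18152913-18153162, plus strand): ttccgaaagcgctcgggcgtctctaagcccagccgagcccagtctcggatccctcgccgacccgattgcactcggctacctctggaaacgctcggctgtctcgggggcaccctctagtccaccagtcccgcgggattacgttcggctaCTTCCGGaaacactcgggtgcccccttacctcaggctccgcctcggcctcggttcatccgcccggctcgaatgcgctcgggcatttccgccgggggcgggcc

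RefSeq's promoter table held 54 start sites for 30 of the 34 members. The ETS motif lay in the 250 bases before 8 of them, in 7 genes (INPP4A, MAPKAP1, PIK3C2A, PIK3CA, PIK3R2, TSC1 and TSC2), and in 8.52% of all 35116 promoters of the same length. The FOXO motif GTAAACA lay in 1 member promoter, that of PIK3CA (2.98% of all promoters), and the E box CACGTG in 1, of TSC2 (6.34% of all). A match is a run of letters and no evidence of binding. The 7 genes with an ETS match had log2 fold changes on both sides of 0, from -0.55 for PIK3R2 to 0.36 for INPP4A.

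PIK3R1 had 50.1, 51.4 and 52.8 normalised CPM with DMSO and 33.9, 48.4 and 58.1 with SGC707, so the treated libraries spread around the DMSO ones (log2 fold change -0.14, edgeR adjusted p = 0.821). PIK3R3 had 31.3, 33.8 and 31.96 with DMSO and 34.1, 38.2 and 46.1 with SGC707. Its groups did not overlap, by a margin of less than 1 normalised CPM between DMSO B and SGC707 A (log2 fold change 0.29, SE 0.17, edgeR adjusted p = 0.512). PIK3R1 made up 20.1%, 19.4% and 21.4% of the length-scaled counts of the 3 regulatory genes with DMSO and 17.4%, 22.8% and 27.2% with SGC707. These shares overlapped, with a difference of 2.17 percentage points (two-sided exact permutation p = 0.6, 0.75 adjusted over the 5 shares) that turned to -0.178 without SGC707 C.

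AKT1 and AKT2 encode the kinases at the centre of the pathway, of which AKT2 is best known for insulin-driven glucose uptake. AKT1 (chromosome 14, 104769349 to 104795751) stood at 52.5, 70.8 and 53.9 normalised CPM with DMSO and at 108, 94.2 and 58.8 with SGC707. SGC707 A and B lay above all DMSO libraries, and SGC707 C lay among them. The log2 fold change was 0.56 (SE 0.25, 95% interval -0.01 to 1.13, edgeR adjusted p = 0.397). It was 0.77 without SGC707 C (edgeR adjusted p = 0.0335 in that fit) and 0.38 without SGC707 A. AKT2 (chromosome 19, 40230317 to 40285536) had 73.5, 69.4 and 56.6 normalised CPM with DMSO and 71.7, 60.9 and 38.0 with SGC707, with SGC707 C the lowest library (log2 fold change -0.23, SE 0.24, edgeR adjusted p = 0.732).

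The balance of the AKT genes was also read within each library. AKT1 made up 49.1%, 57.99% and 56.3% of the length-scaled AKT1 and AKT2 counts with DMSO. With SGC707 it made up 67.2%, 67.7% and 67.7%. All 3 treated libraries lay above all DMSO libraries and within 0.488 percentage points of each other, while the DMSO libraries spread more widely. The means were 54.5% ± 4.71 and 67.5% ± 0.280 (SD, n = 3), a difference of 13.0 percentage points (two-sided exact permutation p = 0.1, the smallest possible, 0.167 adjusted over the 5 shares). The difference was 10.4 to 14.8 points when 1 library was left out. The longest coding transcripts of AKT1 and AKT2 have GC contents of 58.7% and 58.3%, and the part of the GC trend in this share was not tested. AKT1 shares 663 exon bases with the antisense gene AL583722.2, which is not among the counted genes. With the strand setting of the counting not given, reads of the pair cannot be told apart.

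The promoters of this pair are shown for comparison because their balance gave the largest difference among the shares. None of the 3 motifs lay in the windows of either gene, so no letters are in capitals. RefSeq's table gives a pair of start sites for each gene, and the window shown is that of the most upstream one. The windows of AKT1 have GC contents of 83.2% (shown) and 57.2%, and those of AKT2 66% (shown) and 64%.
AKT1 (GRCh38.p14 chr14:104795749-104795998, minus strand): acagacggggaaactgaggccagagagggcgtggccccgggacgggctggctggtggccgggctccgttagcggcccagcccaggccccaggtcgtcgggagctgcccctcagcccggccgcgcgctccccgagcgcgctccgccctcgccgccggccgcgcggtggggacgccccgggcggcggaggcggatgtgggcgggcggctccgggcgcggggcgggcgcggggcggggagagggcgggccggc
AKT2 (GRCh38.p14 chr19:40285346-40285595, minus strand): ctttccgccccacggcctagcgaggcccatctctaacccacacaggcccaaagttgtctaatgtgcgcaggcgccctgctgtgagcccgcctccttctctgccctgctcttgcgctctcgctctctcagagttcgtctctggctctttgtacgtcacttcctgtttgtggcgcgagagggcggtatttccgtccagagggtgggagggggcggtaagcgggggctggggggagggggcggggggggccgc

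PDPK1 encodes PDK1, the kinase that phosphorylates the activation loop of AKT, and had the most negative fold change of the members. It stood at 47.4, 29.7 and 33.2 normalised CPM with DMSO and at 38.7, 13.1 and 13.95 with SGC707. SGC707 B and C lay below all DMSO libraries, and SGC707 A lay among them. The log2 fold change was -0.75 (95% interval -1.74 to 0.25, edgeR adjusted p = 0.506) and -1.44 without SGC707 A. AKT1S1, described below with mTORC1, was split in the same way, and both are given by library because of this split, which was seen in the data. PDPK1 shares 748 exon bases with the antisense gene AC093525.7 and 1838 with the antisense gene AC141586.3. Neither is among the counted genes. With the strand setting of the counting not given, reads of PDPK1 and these genes cannot be told apart.

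The lipid phosphatases INPPL1 and INPP4A and the protein phosphatases PHLPP1 and PHLPP2 oppose PI3K and AKT signalling. INPPL1, which encodes the SHIP2 phosphatase that removes a phosphate from PIP3, stood at 54.8 ± 14.2 normalised CPM with DMSO against 37.1 ± 10.2 with SGC707 (SD, n = 3; log2 fold change -0.56, edgeR adjusted p = 0.445). INPP4A, which acts on the lipid that INPPL1 produces, was the lowest of this group per kb at 1.45. It had 11.1, 16.6 and 10.4 normalised CPM with DMSO and 14.3, 14.97 and 19.6 with SGC707, with DMSO B inside the range of the treated libraries (log2 fold change 0.36, edgeR adjusted p = 0.581). PHLPP1 (13.0 ± 1.47 and 11.9 ± 0.652) and PHLPP2 (19.1 ± 1.93 and 19.1 ± 2.48 normalised CPM, SD, n = 3), which remove the activating phosphate of the AKT tail, had log2 fold changes of -0.13 and 0.00. Their 95% intervals, -0.57 to 0.30 and -0.43 to 0.43, bound the differences these libraries could hide.

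Among the FOXO factors, which turn on genes of growth arrest and stress resistance when AKT is inactive, FOXO3 was the main transcript. It stood at 8.20 normalised CPM per kb, FOXO4 at 2.42 and FOXO1 at 0.169. FOXO3 (chromosome 6, 108559835 to 108684774) had 57.5, 52.2 and 56.2 normalised CPM with DMSO and 61.1, 60.9 and 73.1 with SGC707. The treated libraries all lay above the DMSO libraries (log2 fold change 0.23, SE 0.15), and the difference did not pass (edgeR adjusted p = 0.543). FOXO1 was measured on 9 to 18 counts per library, with 0.858, 0.880 and 1.62 normalised CPM for DMSO and 0.846, 0.818 and 0.779 for SGC707. Its groups did not overlap, but DMSO A and B stood next to the treated libraries and DMSO C alone was apart (log2 fold change -0.46, and -0.09 without DMSO C, edgeR adjusted p = 0.681 with all libraries). FOXO4 stood at 7.41 ± 1.49 and 8.60 ± 2.13 (SD, n = 3; log2 fold change 0.22, edgeR adjusted p = 0.774).

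The TSC complex, a GTPase-activating complex of TSC1, TSC2 and TBC1D7, switches RHEB off. TSC2, the catalytic subunit, had 128 ± 19.0 normalised CPM with DMSO against 93.6 ± 34.7 with SGC707 (SD, n = 3; log2 fold change -0.44, edgeR adjusted p = 0.552). The value was -0.17 without SGC707 C, in which TSC2 stood at 54.3 against 105.6 to 139.6 in the other libraries. TSC2 shares 778 exon bases with PKD1 on the opposite strand. PKD1 had 921, 741 and 778 counts with DMSO and 1876, 1406 and 385 with SGC707, and reads of the pair cannot be told apart. TSC1, which stabilises TSC2, had among the narrowest intervals of the members, with 54.1 ± 2.34 and 52.5 ± 2.39 (SD, n = 3; log2 fold change -0.04, 95% interval -0.36 to 0.27). TBC1D7, the third subunit and the lowest of the group per kb at 3.01, had 5.05, 7.14 and 9.54 normalised CPM with DMSO and 8.34, 8.55 and 8.34 with SGC707. The treated values were close together and inside the DMSO range (log2 fold change 0.21, edgeR adjusted p = 0.773).

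RHEB, the activator of mTORC1, was the highest of this group at 20.2 normalised CPM per kb. RHEB (chromosome 7, 151466012 to 151520120) stood at 28.5, 36.0 and 42.4 normalised CPM with DMSO and at 52.4, 42.6 and 49.8 with SGC707. The groups did not overlap, by 0.173 between DMSO C and SGC707 B. The log2 fold change was 0.44 (SE 0.19, unadjusted p = 0.0510, edgeR adjusted p = 0.396). GENCODE lists 3 pseudogenes named after RHEB, 3 after EIF4EBP2, and 1 each after PIK3CD and EIF4EBP1. No source used here says how reads shared with these pseudogenes were counted.

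mTOR itself, encoded by MTOR, is shared by both complexes. MTOR stood at 73.3 ± 9.67 normalised CPM with DMSO against 76.3 ± 3.6 with SGC707 (SD, n = 3; log2 fold change 0.06, 95% interval -0.29 to 0.41, edgeR adjusted p = 0.909). RPTOR, the scaffold that brings substrates to mTORC1, was the other member with an unadjusted p under 0.05. RPTOR (chromosome 17, 80544819 to 80966371) had 56.0, 51.7 and 45.6 normalised CPM with DMSO and 44.8, 37.7 and 29.4 with SGC707. The groups did not overlap, although DMSO C and SGC707 A were less than 1 normalised CPM apart. The log2 fold change was -0.45 (SE 0.19, unadjusted p = 0.0479, edgeR adjusted p = 0.388), -0.31 without SGC707 C, and 0.25 with library totals alone.

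RICTOR, the defining subunit of mTORC2, had 28.2, 20.8 and 18.5 normalised CPM with DMSO and 25.7, 23.1 and 27.4 with SGC707, with the treated libraries inside the DMSO range (log2 fold change 0.17, edgeR adjusted p = 0.759). RPTOR made up 74.7%, 78.7% and 78.6% of the length-scaled RPTOR and RICTOR counts with DMSO and 72.2%, 70.9% and 61.5% with SGC707. The groups did not overlap, and SGC707 C was the lowest. The difference was -9.13 percentage points (77.3% ± 2.27 and 68.2% ± 5.81, SD, n = 3; exact two-sided permutation p = 0.1, the smallest possible, 0.167 adjusted over the 5 shares) and -5.80 without SGC707 C. RPTOR and RICTOR transcripts differ in GC content, 59.8% against 36.5%, and their share in SGC707 C moved with that trend, whose part in the difference was not tested.

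AKT1S1 encodes PRAS40, an inhibitor of mTORC1 that AKT phosphorylates. It stood at 71.3, 76.8 and 65.3 normalised CPM with DMSO and at 69.9, 32.3 and 33.0 with SGC707. SGC707 A lay within the DMSO range, and SGC707 B and C were about equal and far below it, as in PDPK1. The log2 fold change was -0.66 (SE 0.30, edgeR adjusted p = 0.421), and -1.12 without SGC707 A. AKT1S1 shares 392 exon bases with TBC1D17 on the opposite strand, which did not show this split, with 325, 259 and 129 counts with SGC707.

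MLST8 encodes a subunit of both mTOR complexes. It had 20.4 ± 3.6 and 14.9 ± 7.08 normalised CPM (SD, n = 3; log2 fold change -0.45, edgeR adjusted p = 0.655), with 6.78 in SGC707 C against 16.5 to 23.6 in the other libraries, and the log2 fold change was -0.11 without SGC707 C. MAPKAP1, which encodes the mTORC2 subunit SIN1, was the highest of the mTOR complex genes per kb at 19.4. It stood at 69.0, 80.3 and 61.1 normalised CPM with DMSO and 52.6, 66.5 and 65.5 with SGC707, and the groups overlapped (log2 fold change -0.19, edgeR adjusted p = 0.673). DEPTOR, an inhibitor of both complexes, was the lowest at 0.262 per kb and was not tested. Its counts were 6, 8 and 4 with DMSO and 15, 9 and 11 with SGC707, or 0.572, 0.782, 0.360, 0.906, 0.566 and 0.857 normalised CPM, which overlapped.

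Downstream of mTORC1, the translation repressor genes EIF4EBP1 and EIF4EBP2 had the highest levels of all members per kb, at 55.0 and 32.5 normalised CPM per kb. EIF4EBP2, the form that predominates in brain, was the steadiest of the abundant members. It stood at 232, 231 and 237 normalised CPM with DMSO and at 225, 242 and 247 with SGC707 (log2 fold change 0.03, 95% interval -0.25 to 0.31, edgeR adjusted p = 0.946). EIF4EBP1 had 61.0, 56.9 and 54.1 normalised CPM with DMSO and 77.6, 59.1 and 27.7 with SGC707, so the treated libraries lay both above and below the DMSO ones (log2 fold change -0.06, edgeR adjusted p = 0.955). Its share of the 2 length-scaled transcripts was 65.2%, 63.6% and 61.9% with DMSO and 71.0%, 63.5% and 44.4% with SGC707. The shares overlapped, and the difference of -3.95 percentage points (two-sided exact permutation p = 0.8, also after adjustment over the 5 shares) was 3.68 without SGC707 C.

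RPS6KB1 and RPS6KB2 encode the S6 kinases. RPS6KB1 stood at 55.0 ± 4.14 and 68.9 ± 18.4 normalised CPM (SD, n = 3; log2 fold change 0.32, edgeR adjusted p = 0.545), and the value was 0.08 without SGC707 C. RPS6KB2 stood at 12.4 ± 1.96 and 16.3 ± 7.44 (SD, n = 3; log2 fold change 0.40, edgeR adjusted p = 0.685). SGC707 A and B, at 21.0 and 20.2, lay above all DMSO libraries and SGC707 C, at 7.72, below them, and the value without SGC707 C was 0.73 (edgeR adjusted p = 0.0459 in that fit). GRB10, which encodes an adaptor that mTORC1 stabilises and that dampens insulin receptor signalling, had 1 count each in DMSO B and SGC707 B and 0 counts in the remaining 4 libraries. Both groups were at or under the floor, so no fold is given.

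The members did not vary alike in the 3 SGC707 libraries, and the difference followed GC content. SGC707 C was compared with the mean of SGC707 A and B on the scale of log2 (normalised CPM + 0.5). All 10 tested members with a transcript GC content of at least 58% were lower in SGC707 C, from -1.42 for MLST8 to -0.25 for PIK3R2. Of the 7 members under 42%, 6 were higher in SGC707 C, up to 0.90 for PIK3CB, and TBC1D7 stood at -0.02. Across the 32 members, which share these libraries, the Spearman correlation of this difference with GC content was -0.84, and it was -0.77 across 12111 tested genes with a known GC content. The GC-rich members EIF4EBP1, RPS6KB2, AKT1 and TSC2 had wide spreads among the treated libraries, and so had the AT-rich PIK3CA, PIK3CB and PIK3C2A. PIK3R2, with a GC content of 64.2%, had a narrow spread (63.7 ± 6.25 normalised CPM, SD, n = 3). The part of the GC trend in the comparison of the groups was not tested beyond the correction that follows. A lowess correction for GC content and length called 0 of 32 members, where 0.0738% of all genes were called higher and 0.451% lower. The lowest adjusted p was that of AKT1 (log2 fold change 0.63, edgeR adjusted p = 0.0646), and there were 12 members at an unadjusted p under 0.05 against 23.9% of all genes.

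**Figure D4:**
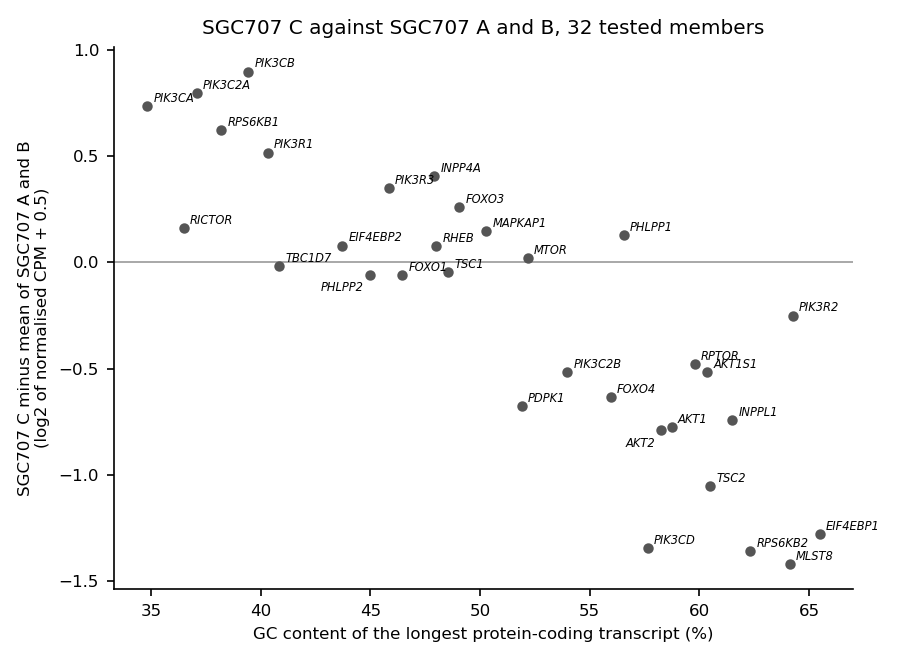
Each point is 1 tested member, with the GC content of its longest protein-coding transcript (%) on the x axis and SGC707 C minus the mean of SGC707 A and B, in log2 of normalised CPM + 0.5, on the y axis. The points fall from the AT-rich PIK3CA and PIK3CB, which were higher in SGC707 C, to the GC-rich MLST8, EIF4EBP1 and RPS6KB2, which were lower.

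Leaving out 1 library at a time showed how far the value of each member depends on a single library. A change of sign occurred in 7 of the 32 (PIK3CA, PIK3CD, PIK3R1, PHLPP2, MTOR, EIF4EBP1 and EIF4EBP2), all of them with log2 fold changes between -0.14 and 0.32 on all libraries. The other 25 kept their sign in all 6 fits, although some of them came close to 0. TBC1D7 fell from 0.21 to 0.0084 without DMSO A, and FOXO1 moved from -0.46 to -0.09 without DMSO C. The widest ranges were those of PDPK1, from -1.44 to -0.48, and PIK3CD, from -0.14 to 0.71. PIK3R2 (-0.59 to -0.47), RPTOR (-0.60 to -0.31), RHEB (0.30 to 0.58) and AKT1 (0.38 to 0.77) kept their sign. Leaving out SGC707 C moved several values by over 1.5 times. Nearer to 0 were those of PIK3C2B (-0.16 to -0.012), AKT2 (-0.23 to -0.0091), INPPL1 (-0.56 to -0.36), INPP4A (0.36 to 0.20), PIK3R3 (0.29 to 0.16), FOXO3 (0.23 to 0.14) and RICTOR (0.17 to 0.11). Farther from 0 were those of FOXO4 (0.22 to 0.40), PIK3R1 (-0.14 to -0.33) and PIK3CA (-0.03 to -0.32), and EIF4EBP1 moved from -0.06 to 0.25.

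**Figure D5:**
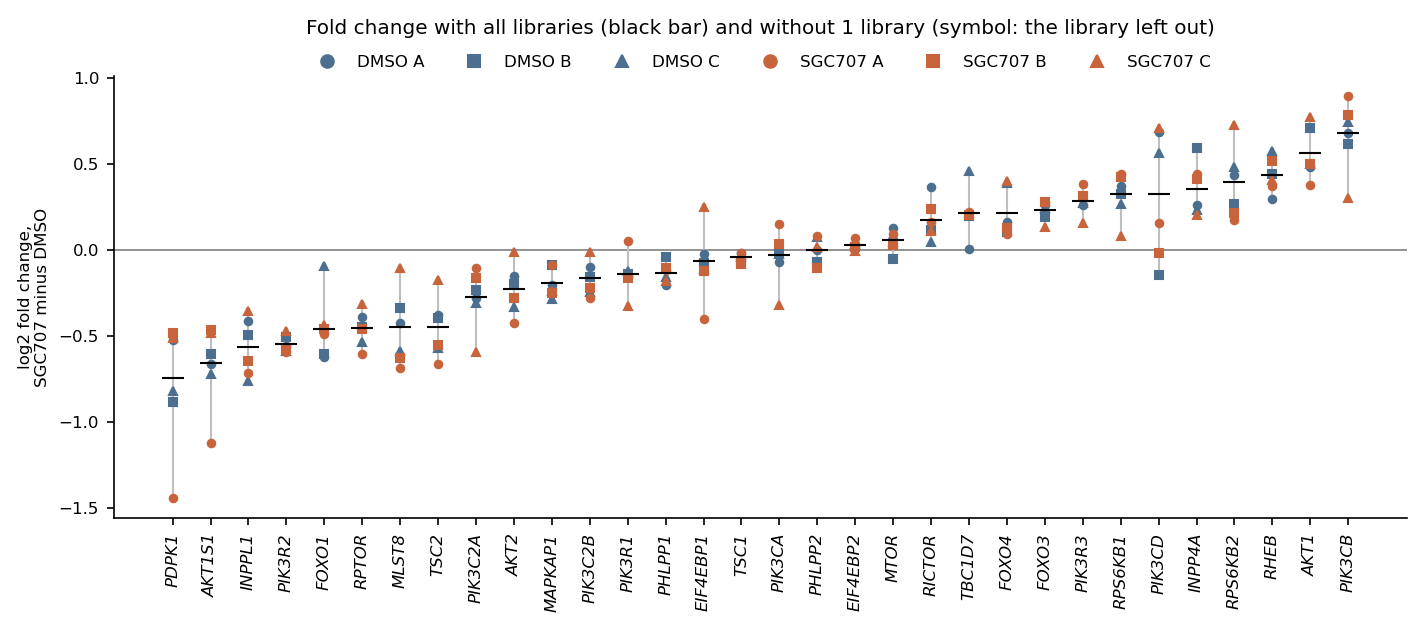
For each tested member the black bar is the log2 fold change (SGC707 minus DMSO) on all 6 libraries and each symbol is the value without the library it stands for. The symbols of PDPK1 and AKT1S1 without SGC707 A lie far below the rest, and those of PIK3R2 lie close together.

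Other genes of the pathway were counted in 7 lists that hold no member. Over all tested genes, 52.8% had positive log2 fold changes. Some genes are in more than 1 list and, where tested, count in each. INSR, IRS2 and PIK3IP1 are listed both as receptors or adaptors and as FOXO targets. SESN1 and SESN3 are listed both under amino acid sensing and as FOXO targets. Among receptors and adaptors, 0 of 14 tested genes were called by edgeR, 11 had positive and 3 negative log2 fold changes, and the median was 0.12. The smallest p was that of GAB2, a docking protein that recruits PI3K regulatory subunits, with 139.8 ± 24.0 and 89.2 ± 8.03 normalised CPM (SD, n = 3; log2 fold change -0.65, edgeR adjusted p = 0.244), followed by ERBB2 (0.43) and INSR (0.23). The further PI3K, phosphatase and AKT family genes had 0 of 9 called, 5 positive and 4 negative, with a median of 0.06. Their smallest p values belonged to FOXO6 (-1.10), SGK1 (-0.36) and PIK3R4 (0.23). The mTOR assembly and AMPK genes had 0 of 16 called, 9 positive and 7 negative, with a median of 0.13. They were led by CRTC2 (-1.05), a CREB coactivator, PRKAB2 (0.46), an AMPK subunit, and TTI1 (-0.36).

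Genes of amino acid sensing by mTORC1 had 0 of 31 called, 15 positive and 16 negative, with a median of -0.02. LAMTOR5 (0.84), a Ragulator subunit, and RRAGC (0.53), a Rag GTPase, were positive, and NPRL3 (-0.53), a subunit of the inhibitory GATOR1 complex, negative, with edgeR adjusted p from 0.277 to 0.388. Effectors of AKT and mTORC1 had 0 of 24 called, 14 positive and 10 negative, with a median of 0.06. GSK3A, a tau kinase that AKT inhibits, led them with 152.7 ± 32.1 and 72.3 ± 8.70 normalised CPM (SD, n = 3; log2 fold change -1.08, edgeR adjusted p = 0.163), followed by MDM2 (-1.60, with 62.8 ± 36.1 with DMSO) and RPS6 (0.34). FOXO target genes had 0 of 18 called, 13 positive and 5 negative, with a median of 0.15, led by CITED2 (-1.34), TXNIP (0.49) and CDKN1B (0.29).

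Transcripts induced with mTORC1 activity through ATF4, HIF1A and SREBP had 0 of 22 called, 15 positive and 7 negative, with a median of 0.16. In this list 5 genes were higher and 0 lower at an unadjusted p under 0.05, where 5.62% of all genes were higher at that level. PSAT1 (0.52), DDIT4 (0.86) and LDHA (0.58) had the smallest p, with edgeR adjusted p from 0.291 to 0.311. The median of all tested genes was 0.02. In each of the other 6 lists at most 2 genes were higher and at most 2 lower at that level, and counts in these lists describe them without a test of the list.

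MIR448, the microRNA in the study's question, was not analysed here as a transcript, and its seed was looked for in the members. The mature sequence from RefSeq is shown with its seed, bases 2 to 8, in capitals. A match is the run ATATGCA in the 3′ UTR of the longest protein-coding transcript in GENCODE 29, which is in capitals in the sites below.
hsa-miR-448: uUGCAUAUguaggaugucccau
PIK3C2A (chr11:17088067-17088095, minus strand): aaactgacaaaATATGCAataaagaatac
RICTOR (chr5:38941946-38941974, minus strand): acaataatgggATATGCAgaagcaccctt
PHLPP2 (chr16:71646939-71646967, minus strand): gccccatgctcATATGCAcgtgtcattgg
FOXO3 (chr6:108681226-108681254, plus strand): attagcacagtATATGCAtacttctccaa
PIK3R1 (chr5:68298917-68298945, plus strand): gaggcaaggttATATGCActttctcatga

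These 5 of 32 tested members held at least 1 match (15.6%), with a second in RICTOR and 3 in PIK3R1, and so did 14.4% of 12028 tested genes with a 3′ UTR. IGF1R, the receptor in the study's question, held 1 match in a 3′ UTR of 7088 bases. The 5 members had log2 fold changes of -0.27 (PIK3C2A), -0.14 (PIK3R1), 0.00 (PHLPP2), 0.17 (RICTOR) and 0.23 (FOXO3), a median of 0.00 against -0.04 in the 27 members with no match. Over all tested genes the medians were 0.03 with and 0.02 without a match. Genes with a match have longer 3′ UTRs, with a median of 3220 bases against 1379 over all genes. A match is a description of letters, and these values show nothing about MIR448 itself.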

How the data were processed

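The authors deposited a table of whole-number read counts per gene symbol for 6 libraries, not scaled between libraries. Per the submitters' processing notes, HISAT2 and StringTie were used with GRCh38; no source used here gives versions, annotation, strand setting or the handling of shared reads. Per the labels' protocols, DNase-treated RNA was made into mRNA libraries sequenced as paired reads. Libraries were grouped by the treatment in the labels.

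From these counts, edgeR 4.0.16 in R 4.3.3 (filterByExpr, 12196 genes kept, TMM, glmQLFit with robust estimation, glmQLFTest, no covariate) compared SGC707 with DMSO over the whole table, with Benjamini-Hochberg adjustment over all tested genes and a threshold of 0.05. Each SE is the absolute log2 value over the root of F. Lengths and GC content are those of the longest protein-coding transcript in GENCODE release 29. Shares were tested by exact permutation in scipy 1.17.1. Alternatives used DESeq2 1.42.0, limma 3.58.1 and a lowess correction (span 0.3, mean count 20 or more). No library pair in a group agreed within sampling noise (lowest chi-square 12.4 per degree of freedom), and the test was tried on simulated data. Full values were given for members at an unadjusted p under 0.05, the highest and lowest per kb of each role and those in the 5 shares. In each list the 3 genes with the smallest p were named. Other members given by library were chosen after their values were seen. Members, lists and tests were chosen with earlier results of these data known.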

Additional observations from a re-analysis of the deposited data

How the results depend on the processing

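No member was called in the planned fits other than DESeq2, limma-voom with library weights, library totals alone and the fit without SGC707 C. Members called higher numbered 8 with library totals alone, 3 with library weights and 0 to 2 with 1 library left out, and members called lower numbered 1 with DESeq2, 4 with library weights and 0 to 2 with 1 library left out, the 2 in each case without SGC707 C. Over all tested genes, edgeR called 3, and the count was 2605 with library totals alone, 6 with no filter on low counts, 307 with DESeq2, 3451 with library weights, 64 with the GC and length correction, and 0 to 1147 with 1 library left out, the highest without SGC707 C. Members at an unadjusted p under 0.05 numbered 2 with all libraries, against 12.8% of all tested genes, and 15 with library totals alone, against 49.2%. They numbered 5 with no filter (10.7% of all genes), 5 with DESeq2 (12.8%) and 4 with limma-voom (12.8%). There were 12 with library weights (41.9% of all genes) and 12 with the GC and length correction (23.9%). With 1 library left out there were 1 to 6, against 5.66% to 30% of all genes. Members whose groups did not overlap numbered 7 (20.6% of all tested genes), and 5 with RLE size factors (2 above in place of 4, 20.3% of all genes). They numbered 14 with library totals alone, against 50.2% of all genes. With 1 library left out, where fewer libraries must be apart, they numbered 8 to 15, against 24.4% to 50.4% of all genes.

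With the replicate letter as a block, 0 genes and 0 members were called. In that fit 6 members had an unadjusted p under 0.05, against 12.6% of all tested genes. The letters were not shown to pair the libraries, since deviations of same-letter libraries correlated at 0.0824 (A), -0.0104 (B) and 0.112 (C), and not every library correlated best with its own letter.

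Library totals alone turned these log2 fold changes positive: PIK3CA (0.60), PIK3C2A (0.36), PIK3C2B (0.54), PIK3R1 (0.50), PIK3R2 (0.15), AKT2 (0.50), INPPL1 (0.18), PHLPP1 (0.54), FOXO1 (0.18), TSC1 (0.63), TSC2 (0.30), RPTOR (0.25), MLST8 (0.31), MAPKAP1 (0.49), AKT1S1 (0.061) and EIF4EBP1 (0.67). PHLPP2, near 0, was at -0.0091 with RLE size factors, -0.0093 with DESeq2, -0.0026 with limma-voom and -0.00044 with the block. With library weights RICTOR was at -0.011 and EIF4EBP1 at 0.070. With 1 library left out, the values ran from -0.32 to 0.15 for PIK3CA, -0.14 to 0.71 for PIK3CD, -0.33 to 0.052 for PIK3R1, -0.10 to 0.083 for PHLPP2, -0.049 to 0.13 for MTOR, -0.40 to 0.25 for EIF4EBP1 and -0.0026 to 0.068 for EIF4EBP2. The share differences ran from -0.178 to 4.68 percentage points for PIK3R1 and from -9.65 to 3.68 for EIF4EBP1, each changing sign without SGC707 C only. The causes of these changes were not tested.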

Other observations

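Another 3 pairs of paralogs or partners, chosen after the data were seen, were read as shares of length-scaled counts with no test, and are listed in the order A, B, C. TSC2 made up 77.3%, 78.5% and 72.7% of TSC1 and TSC2 with DMSO and 76.4%, 72.6% and 59.2% with SGC707. RPS6KB2 made up 41.4%, 36.7% and 46.4% of the S6 kinase transcripts with DMSO and 53.5%, 52.0% and 21.3% with SGC707. PHLPP1 made up 45.1%, 53.2% and 44.3% of the PHLPP transcripts with DMSO and 47.6%, 40.9% and 47.5% with SGC707. The groups overlapped in all 3 pairs. SGC707 C differed from the mean of SGC707 A and B by -15.3 percentage points for TSC2, -31.4 for RPS6KB2 and 3.27 for PHLPP1, whose GC contents exceed those of their partners by 11.9, 24.1 and 11.6 percentage points. Among the 5 shares tested above, the AKT1 share, with a GC gap of 0.469 points, differed by 0.239 points. The PIK3CA share, with a gap of -13.7 points, differed by 0.471 points. The shares of PIK3R1, EIF4EBP1 and RPTOR, with gaps of -14.7, 21.8 and 23.3 points, differed by 7.05, -22.9 and -10.0 points. The part of GC content in these differences was not tested.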
